A study of Homo sapiens with 4 samples.

Results

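Immediate early genes are switched on within minutes of a growth or stress signal, without new protein synthesis, from promoters that already hold their factors. Serum response factor (SRF), its ETS-family partners and CREB carry the signal to many of them. Their products include the FOS and JUN proteins, which pair into the AP-1 transcription factor, zinc finger factors such as EGR1 and KLF4, and proteins that damp the signal again. In prostate epithelium and in prostate cancer cells they are known for responding to growth factors and to stress.

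Chromatin was examined at 10 of these genes, of 20037 protein-coding genes in all: EGR1, DUSP1, FOSL2, KLF6, JUNB, KLF4, JUN, FOS, TRIB1 and CCN1. They were selected on values of these libraries, namely the presence and level (FPM, defined below) of summits at their ends, so which of them carried a summit, and how their levels compared, are given as a description only. The series profiled 22RV1, an established human prostate cancer cell line, by an assay labelled CUT&Tag, with 1 library in each of 4 groups. The labels' protocols describe sonicated, formaldehyde-fixed chromatin with an input and an immunoprecipitated part, steps usual for ChIP-seq, so the assay itself is uncertain. They were cells given PD0332991 (palbociclib), an inhibitor of the CDK4/6 kinases that phosphorylate the retinoblastoma protein RB, the control cells of that inhibitor, cells with RB knocked down by siRNA, and the control cells of that knockdown. The sources used here name no antibody target, inhibitor dose or treatment time, and no genetic change beyond the line itself. No group had a second library, so no difference below has a replicate check.

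The files list intervals, each with a single summit, the position where most fragments piled up. Levels are the treatment fragments covering a summit, solved from the deposited fold and p-value and scaled to 1000000 fragments of the library (FPM). Recovered libraries held 1909343 fragments under PD0332991, 2458773 in its control, 2423283 after RB siRNA and 3479671 in the siRNA control, so 1 fragment was worth 0.524, 0.407, 0.413 and 0.287 FPM. Brackets after a level are exact Poisson 95% intervals, and they cover counting error only. The intervals tile nearly the whole genome, with median widths of 557 kb under PD0332991, 189 kb in its control, 718 kb after RB siRNA and 180 kb in the siRNA control. Each reports its highest point alone, so a lower summit in the same interval is hidden and its level is known only to lie at or under that of the listed one. A position with 0 fragments already had a −log10 p of 3.19 under PD0332991, 2.61 in its control, 3.24 after RB siRNA and 2.63 in the siRNA control, above the lowest listed values of 1.45, 1.37, 1.40 and 1.32. Being listed is therefore no measure of enrichment, and the levels are compared instead. The background recovered was thin, at 9592 read ends under PD0332991, 34562 in its control, 7641 after RB siRNA and 36250 in the siRNA control. Levels count treatment fragments alone, with no background taken off, so they do not measure enrichment either.

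The promoters of 4 members are shown because their summits recurred at the same place or because they hold the known response elements of the group. Each run is the 250 bases before the annotated start site in RefSeq (GRCh38.p14), on the strand of the gene, 5′ to 3′, with its last base at position -1. Capitals mark CArG boxes (the SRF site: CC, then 6 bases that are A or T, then GG), the cyclic AMP response element TGACGTCA, and the ETS core GGAA or its reverse complement TTCC. EGR1 lies at chr5:138465229-138465478 (plus strand), DUSP1 at chr5:172771196-172771445 (minus), KLF6 at chr10:3785210-3785459 (minus) and JUNB at chr19:12791236-12791485 (plus).
EGR1: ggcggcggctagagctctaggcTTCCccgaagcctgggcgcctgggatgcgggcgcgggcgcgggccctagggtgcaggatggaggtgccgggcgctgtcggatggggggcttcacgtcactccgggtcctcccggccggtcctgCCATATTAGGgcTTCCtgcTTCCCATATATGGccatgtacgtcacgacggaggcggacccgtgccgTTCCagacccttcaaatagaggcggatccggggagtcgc
DUSP1: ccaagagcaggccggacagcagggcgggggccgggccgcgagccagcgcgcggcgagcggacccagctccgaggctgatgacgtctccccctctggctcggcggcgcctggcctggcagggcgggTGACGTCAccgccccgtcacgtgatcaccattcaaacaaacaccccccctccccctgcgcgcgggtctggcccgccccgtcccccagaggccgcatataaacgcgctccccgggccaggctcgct
KLF6: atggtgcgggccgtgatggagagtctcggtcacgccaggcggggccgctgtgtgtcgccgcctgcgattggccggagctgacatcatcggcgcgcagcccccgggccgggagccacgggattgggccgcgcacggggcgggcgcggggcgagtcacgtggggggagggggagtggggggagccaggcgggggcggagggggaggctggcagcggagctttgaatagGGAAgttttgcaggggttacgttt
JUNB: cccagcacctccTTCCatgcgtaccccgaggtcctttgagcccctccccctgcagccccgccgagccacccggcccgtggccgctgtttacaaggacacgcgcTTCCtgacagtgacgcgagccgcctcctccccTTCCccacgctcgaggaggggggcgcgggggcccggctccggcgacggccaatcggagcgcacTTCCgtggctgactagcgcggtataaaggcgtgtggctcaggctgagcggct

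The EGR1 promoter held 2 CArG boxes, at positions -105 to -96 and -83 to -74, and ETS cores starting at -228, -93, -86 and -39. The core at -86 to -83 shares its last base with the CArG box at -83. EGR1 was the 1 member of the 8 in the promoter table with a CArG box, which 1.21% of 15843 protein-coding promoters held over the same window, 250 bases before to 50 after the start. DUSP1 was the 1 member with TGACGTCA, at -125 to -118, against 2.59% of all promoters, and the 1 member without an ETS core, which 95.1% held. FOSL2 was the 1 with the AP-1 site TGACTCA, 4 to 10 bases after its start base, against 3.66%. The GC box GGGCGG was found in 6 of the 8 (58.5% of all), and CACCC, a site of KLF factors, in 6 (62.9%). The GC box of DUSP1 at -117 to -112 directly followed its TGACGTCA, and the CACCC match at -128 to -124 overlapped both its GC box at -132 to -127 and the TGACGTCA. None of the 8 held the longer ETS site CCGGAAGT (6.19%) or the EGR1 site GCGTGGGCG (1.09%). All motifs were read on both strands, and a match is a run of letters, not a measured site. Bases beyond 250 before or 50 after the start were not read, so a motif farther out is not counted. TRIB1 and CCN1 are not in the table.

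Of the 40 combinations of a member and a library, 28 had a summit within 1000 bp of a gene end, 11 had an interval whose summit lay elsewhere, and 1 had no interval. By library, 5 of the 10 members carried such a gene-end summit under PD0332991 and 8 in its control. After RB siRNA 6 did, and 9 in the siRNA control. Over all protein-coding genes the shares were 7.73% under PD0332991, 16.8% in its control, 6.63% after RB siRNA and 17.3% in the siRNA control. The lower counts of members in the treated libraries thus go with lower counts over all genes. EGR1, DUSP1 and TRIB1 had a gene-end summit in all 4 libraries, FOSL2, KLF6 and KLF4 in 3, JUNB, JUN and CCN1 in 2, and FOS in 1. The summits lay 27 to 669 bp from the nearest gene end, and the next one out, near FOS under PD0332991, lay 12.1 kb away.

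**Figure D1:**
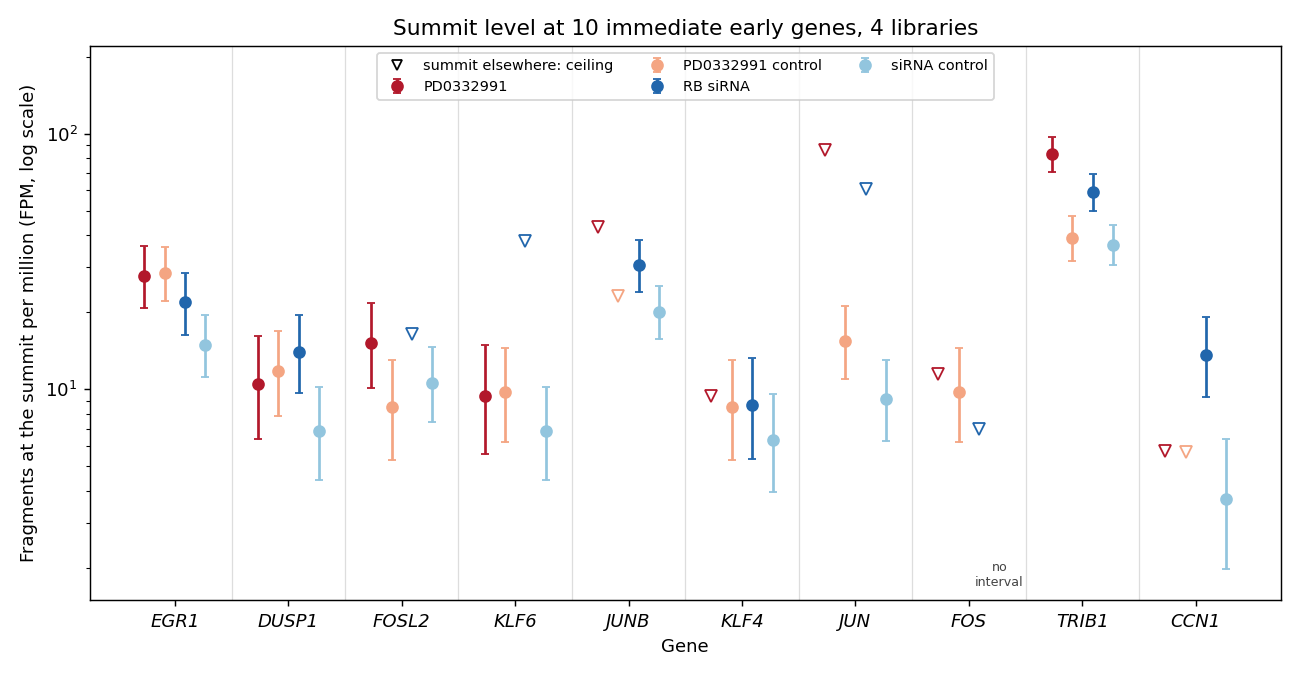
Fragments at the summit per 1000000 (FPM, log scale) at the 10 genes in the 4 libraries; filled points are gene-end summits with exact Poisson 95% intervals, and open triangles are the summit of the interval over the gene where that summit lay elsewhere, a ceiling for the gene. TRIB1 is the highest member with a gene-end summit in every library, with 83.3 FPM under PD0332991, and CCN1 has 13.6 FPM after RB siRNA against 3.74 in the siRNA control.

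EGR1, the zinc finger factor that gives the group its best known reporter (chr5:138465479-138469303), had 27.8 FPM (20.8 to 36.3, 53 fragments) under PD0332991 and 28.5 (22.2 to 36.0, 70 fragments) in its control. After RB siRNA it had 21.9 FPM (16.4 to 28.6), against 14.9 (11.2 to 19.6) in the siRNA control. The siRNA control was the lowest of the 4, and its interval overlapped that of RB siRNA and not those of the inhibitor pair. Libraries differ in overall level, however. Over the summits shared by the 2 controls, the median log2 ratio of inhibitor control over siRNA control was 0.59. EGR1 there had 0.93 (0.39 to 1.48), within counting error of that median. PD0332991 and the siRNA control were not compared over shared summits. Its summits lay upstream of the promoter shown above, 599 bp before the start site under PD0332991, 540 bp in its control, 599 bp after RB siRNA (the same base, 138464880, as under PD0332991) and 669 bp in the siRNA control. After RB siRNA this was the highest point of an interval of 6.17 Mb, the widest of any member summit. Under PD0332991 that width was 1.82 Mb, in its control 0.132 Mb and in the siRNA control 0.718 Mb.

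KLF6 and KLF4 encode Krüppel-like zinc finger factors. KLF6 (chr10:3775996-3785209) had 9.43 FPM (5.59 to 14.9) under PD0332991 and 9.76 (6.25 to 14.5) in its control. In the siRNA control it had 6.90 FPM (4.42 to 10.3), and after RB siRNA the interval over it had its summit 603 kb away at PITRM1, with 38.0 FPM, which hides any lower one. The 3 KLF6 summits fell 130, 129 and 129 bp before the start site, within the promoter shown. KLF4 (chr9:107484852-107489769) had 8.67 FPM (5.36 to 13.2) after RB siRNA and 6.32 (3.96 to 9.57) in the siRNA control, and 8.54 (5.29 to 13.1) in the inhibitor control. Under PD0332991 the interval over KLF4 had its summit outside the gene-end window, so no KLF4 level is given there. The 3 KLF4 intervals overlapped one another.

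The 4 AP-1 genes were listed less evenly. JUNB (chr19:12791486-12793315) had 30.5 FPM (24.0 to 38.3, 74 fragments) after RB siRNA and 20.1 (15.7 to 25.4, 70 fragments) in the siRNA control, at 27 and 28 bp before its start site. Both JUNB summits lie outside JUNB and inside HOOK2, which encodes a microtubule linker. An end of HOOK2 is within 1000 bp of them, so they may belong to either gene. Under PD0332991 the interval over JUNB peaked 1286 kb away, at the shared ends of ECSIT and ZNF653, with 42.9 FPM. In the inhibitor control it peaked 16.1 kb away, inside HOOK2, with 23.2 FPM, so JUNB was no higher than that.

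FOSL2, which encodes the FOS relative FRA2 (chr2:28392858-28417317), had 15.2 FPM (10.2 to 21.8, 29 fragments) under PD0332991 and 8.54 (5.29 to 13.1, 21 fragments) in its control. In the siRNA control it had 10.6 FPM (7.49 to 14.7), and after RB siRNA its interval peaked at ZNF513 and PPM1G, 1012 kb away, with 16.5 FPM. The 3 FOSL2 intervals overlapped one another.

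JUN (chr1:58780791-58784047) had 15.5 FPM (10.9 to 21.2) in the inhibitor control and 9.20 (6.29 to 13.0) in the siRNA control, whose intervals overlapped. In both treated libraries its interval was ruled by a summit at HOOK1, 1031 kb away, with 86.4 FPM under PD0332991 and 60.7 after RB siRNA. JUN is therefore unmeasured there up to those levels. FOS (chr14:75278828-75282230) had a gene-end summit in the inhibitor control alone, with 9.76 FPM (6.25 to 14.5, 24 fragments) at 259 bp before its start site. Under PD0332991 the interval over FOS peaked 12.1 kb beyond the gene with 11.5 FPM, and after RB siRNA at ACYP1 and ZC2HC1C, 209 kb away, with 7.02 FPM. The siRNA control had no interval over FOS, in a gap of 10.4 kb between neighbouring intervals. FOS was thus at or under 11.5 FPM under PD0332991 and 7.02 FPM after RB siRNA, and both ceilings lie within the counting interval of its level in the inhibitor control.

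DUSP1 acts against the signal. DUSP1 (chr5:172768096-172771195) encodes a phosphatase that switches off MAP kinases, and it had 10.5 FPM (6.40 to 16.2, 20 fragments) under PD0332991 and 11.8 (7.90 to 16.9, 29 fragments) in its control. After RB siRNA it had 14.0 FPM (9.72 to 19.6, 34 fragments), against 6.90 (4.42 to 10.3, 24 fragments) in the siRNA control. All 4 counting intervals overlapped one another. Its summit was at the same base, 172771251, 56 bp before the start site, in 3 libraries, and 108 bp after it under PD0332991.

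TRIB1 encodes a pseudokinase that brings proteins to the COP1 ubiquitin ligase (chr8:125430358-125438403). It had 83.3 FPM (70.8 to 97.3, 159 fragments) under PD0332991 and 39.0 (31.6 to 47.7, 96 fragments) in its control. After RB siRNA it had 59.0 FPM (49.7 to 69.5, 143 fragments), against 36.8 (30.7 to 43.7, 128 fragments) in the siRNA control. The counting intervals of the treated libraries overlapped neither each other nor those of the controls, and the 2 control intervals overlapped. These levels are not corrected for differences in overall level between libraries. Read against the median over shared summits (below), TRIB1 was called higher for PD0332991 over its control. For RB siRNA over its control it was not called, with a log2 ratio of 0.68 against a median of 0.45. The 2 treated libraries were not compared over shared summits. Among members with a gene-end summit TRIB1 was the highest in all 4 libraries, although JUN, hidden under higher summits in both treated libraries, is unmeasured there. TRIB1 lay above 96.7% of gene-end summits under PD0332991, 95.3% in its control, 95.6% after RB siRNA and 97.6% in the siRNA control. The summits lay 243 to 313 bp below the lower-coordinate end of the gene. TRIB1 in the siRNA control was the 1 gene-end summit of the 28 with a deposited −log10 q above 0, at 0.997. Its summit in the inhibitor control was the 1 of the 28 above a local background higher than the genome-wide level. That local background was a single read end (1, against 0.13 genome-wide in that library).

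CCN1 (chr1:85580761-85583950) encodes a secreted matricellular protein and is a target of SRF and YAP signalling. It had 13.6 FPM (9.37 to 19.1, 33 fragments) after RB siRNA and 3.74 (1.99 to 6.39, 13 fragments) in the siRNA control, and these intervals did not overlap. Its summits lay 282 and 189 bp below the lower-coordinate end of the gene. After RB siRNA it was the highest point in 4.38 Mb, and in the siRNA control in 0.254 Mb. Under PD0332991 the interval over CCN1 peaked 304 kb away at BCL10 with 5.76 FPM (2.88 to 10.3), and in the inhibitor control at BCL10 with 5.69 FPM (3.11 to 9.55). CCN1 was no higher than these values in the inhibitor pair, although their counting intervals reach just past the lower bound of the level after RB siRNA.

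**Figure D2:**
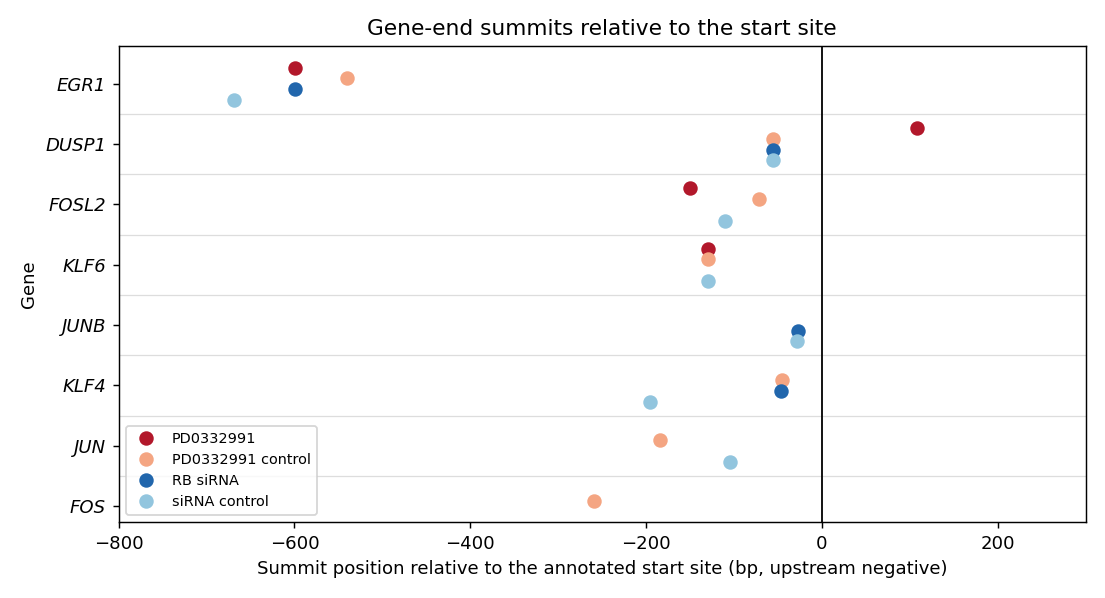
Position of each gene-end summit relative to the annotated start site of the gene (bp, upstream negative), by library, for the 8 genes with a start site in the promoter table. EGR1 summits lie 540 to 669 bp upstream, KLF6 and JUNB summits fall within 1 bp of each other across libraries, and the DUSP1 summit under PD0332991 lies downstream of the start.

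Of the 22 member summits with a known start site, 21 lay upstream and 17 within 250 bp. They come from 8 genes, counted again in each library, so they are not independent. Upstream were 3 of 4 members under PD0332991, 7 of 7 in its control, 4 of 4 after RB siRNA and 7 of 7 in the siRNA control. Over all protein-coding genes with a gene-end summit and a listed start, 68.7% lay upstream of the first listed start under PD0332991, 66.8% in its control, 69.8% after RB siRNA and 65.7% in the siRNA control. The shares within 250 bp of it were 60.9% under PD0332991, 61.3% in its control, 62.6% after RB siRNA and 63.0% in the siRNA control. These all-gene shares take in summits at either gene end. Within 1000 bp of the start lay 91.25% under PD0332991, 90.6% in its control, 91.9% after RB siRNA and 90.7% in the siRNA control. All 22 member summits lay that near, so the sets are not fully alike. The same gene's summits spread over 1 bp for KLF6 and JUNB, 79 bp for FOSL2, 80 bp for JUN, 70 bp for TRIB1 and 93 bp for CCN1. EGR1 spread over 129 bp, KLF4 over 151 bp and DUSP1 over 164 bp.

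Levels at the members were next compared between the libraries of each pair. A summit of one library was paired with that of the other if they were mutually closest and at most 250 bp apart, and a ratio is given as log2 with its exact conditional 95% interval. Libraries differ in overall level, so a ratio was read against the median over all such shared summits whose geometric mean reached 5 FPM, and was called when its interval left that median out. Such calls compare 2 libraries, not conditions. They draw on the contrasts in which the members were known, so they describe and do not test.

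Under PD0332991 the members showed no common direction. Of the 5 with a shared summit, TRIB1 was called higher, none was called lower, and EGR1, DUSP1, KLF6 and FOSL2 lay within counting error. Over all 887 shared summits 17% were called in either direction, 9.36% higher and 7.67% lower, with a median log2 ratio of 0.20. TRIB1 had a log2 ratio of 1.09 (0.72 to 1.47), larger than that of 94.7% of shared summits. FOSL2 had 0.83 (-0.03 to 1.71), EGR1 -0.04 (-0.58 to 0.50), KLF6 -0.05 (-1.02 to 0.89) and DUSP1 -0.17 (-1.07 to 0.70). The median over the 5 members was -0.04. KLF4, JUN and FOS, with summits in the control, were hidden under PD0332991 and have no ratio. With the median shift taken out, TRIB1 lay 0.89 above it, and no member differed from it by 2-fold, as 6.88% of all shared summits did (3.72% higher and 3.16% lower).

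After RB siRNA the 6 members with a shared summit all had ratios above the median shift, and CCN1 alone was called. A member has a ratio only where it is the highest point of its interval in both libraries. FOSL2, KLF6 and JUN, with summits in the siRNA control, were hidden after RB siRNA and have no ratio. The 6 therefore do not speak for the members as a set. Over all 749 shared summits 13.4% were called, 7.61% higher and 5.74% lower, and the median log2 ratio was 0.45. CCN1 had 1.87 (0.90 to 2.92), larger than that of 99.3% of shared summits and 1.42 above the median, which also passes a 2-fold limit that 2.27% passed (1.6% higher and 0.668% lower). DUSP1 had 1.02 (0.23 to 1.84), with a lower bound under the median. TRIB1 had 0.68 (0.33 to 1.04), JUNB 0.60 (0.11 to 1.09), EGR1 0.55 (-0.03 to 1.13) and KLF4 0.45 (-0.48 to 1.39), and their distances from the median were 0.23, 0.15, 0.10 and 0.01. The median over the 6 members was 0.64.

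**Figure D3:**
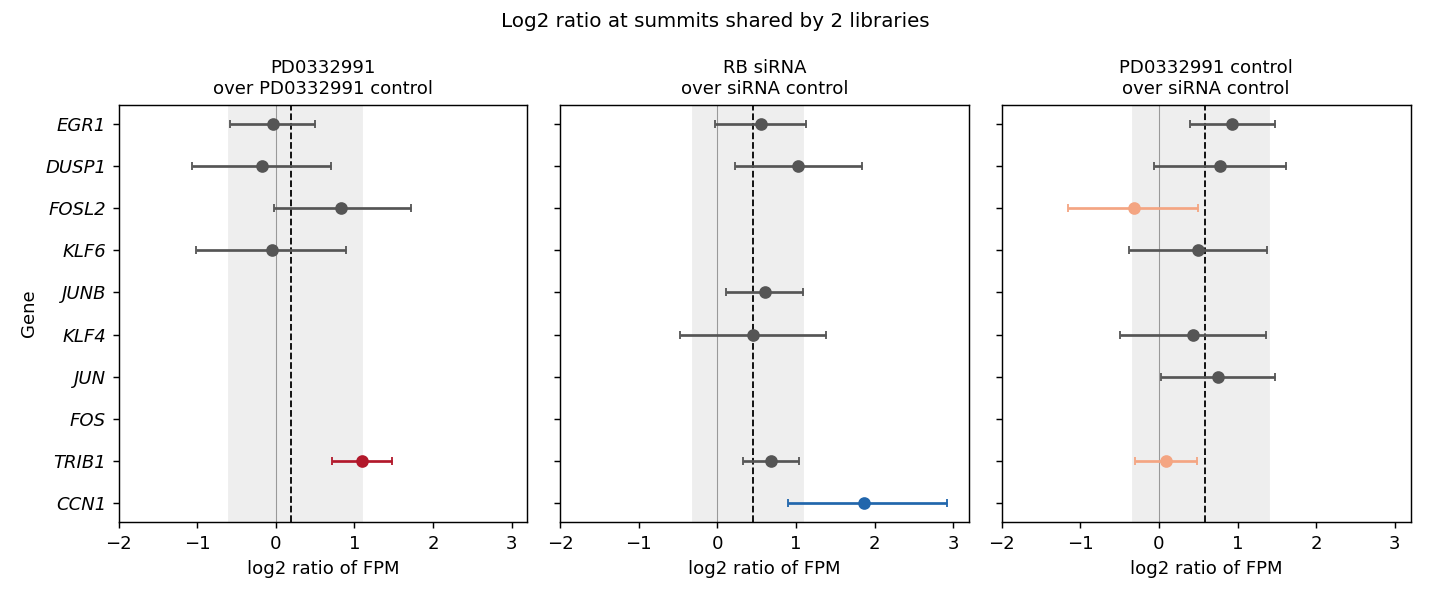
Log2 ratio of FPM at the members with a summit shared by both libraries, for PD0332991 over its control, RB siRNA over its control, and the inhibitor control over the siRNA control; bars are exact conditional 95% intervals, the dashed line is the median over all shared summits, the grey band holds their 5th to 95th percentile, and coloured points have intervals that leave the median out. TRIB1 lies at 1.09 in the first panel and CCN1 at 1.87 in the second, and FOSL2 and TRIB1 lie below the median of 0.59 in the third.

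The inhibitor control and the siRNA control are separate control libraries of the same line, and their levels at shared summits differed too. Over their 1191 shared summits the median log2 ratio, inhibitor control over siRNA control, was 0.59, and 20.3% were called, 11.8% higher and 8.56% lower. A 2-fold distance from it was reached by 6.47%, 2.69% higher and 3.78% lower, and by no member. Of the 7 shared members, TRIB1 and FOSL2 were called lower and the other 5 lay within counting error. TRIB1 had 0.09 (-0.31 to 0.48) and FOSL2 -0.32 (-1.16 to 0.49), so both intervals include 0 and leave out the median. EGR1 had 0.93 (0.39 to 1.48), DUSP1 0.77 (-0.06 to 1.62), JUN 0.75 (0.03 to 1.47), KLF6 0.50 (-0.38 to 1.38) and KLF4 0.43 (-0.50 to 1.36). The inhibitor control stands in this comparison and in that of PD0332991, so the low TRIB1 here and the high TRIB1 under PD0332991 rest in part on the same library.

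**Figure D4:**
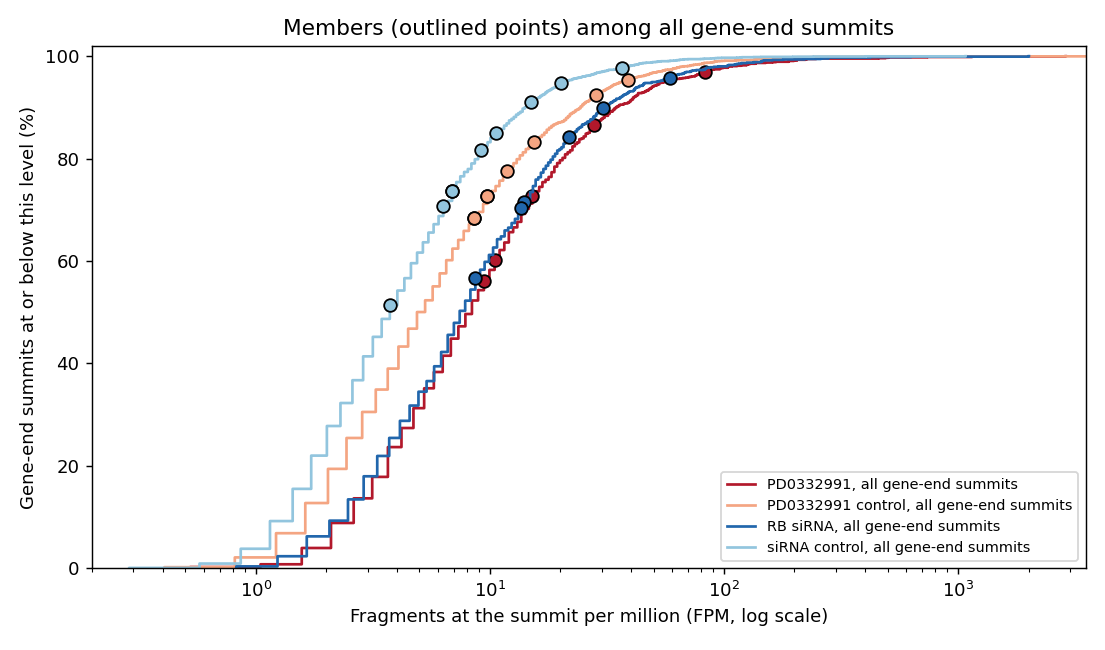
Share of gene-end summits (%) at or below a level in FPM (log scale), over all protein-coding genes in each library; outlined points are the members. The curves of the controls lie left of those of the treated libraries, and member points run from 3.74 FPM (CCN1, siRNA control) to 83.3 FPM (TRIB1, PD0332991).

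Among all gene-end summits the members stood in the upper part, with 1 exception, CCN1 in the siRNA control, which was above 48.7% of them. The members were selected in part on such levels, so this rank and the medians below are no result about immediate early genes. The median over members was 15.2 FPM under PD0332991 and 10.8 in its control, against 8.38 and 4.88 FPM over all gene-end summits of those libraries. After RB siRNA it was 18.0 FPM and in the siRNA control 9.20, against 7.43 and 3.74 FPM. A member is listed only where it is the highest point of its interval, and the treated lists have wider intervals, so these medians cover different members in each library.

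A wider set of immediate early genes was also counted. Of 39 others in the AP-1, EGR and KLF, NR4A, IER, feedback, kinase and response groups, 5 had a gene-end summit under PD0332991, 5 in its control, 2 after RB siRNA and 14 in the siRNA control. These are 12.8% of them under PD0332991 (7.73% of all genes), 12.8% in its control (16.8%), 5.13% after RB siRNA (6.63%) and 35.9% in the siRNA control (17.3%). The shares thus lay on either side of those of all genes, and the list was drawn up with earlier results of these data known. JUND, an AP-1 gene, had 38.8 FPM (32.5 to 45.9) in the siRNA control, with a counting interval that overlaps that of TRIB1, the highest member with a summit there, and KLF10 had 21.8 (17.2 to 27.3). In the treated libraries both lay in intervals with higher summits, and in the inhibitor control no interval covered them. NR4A3, an orphan nuclear receptor gene, had 13.6 FPM (9.37 to 19.1) after RB siRNA, 6.90 (4.42 to 10.3) in the siRNA control and 13.4 (9.24 to 18.8) in the inhibitor control.

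Further members of these groups were at lower or similar levels. SIK1, a kinase gene, had 23.6 FPM under PD0332991 and 15.0 in its control (log2 ratio 0.65, -0.01 to 1.32). DUSP4, a relative of DUSP1, had 10.3 FPM after RB siRNA and 7.76 in the siRNA control (0.41, -0.43 to 1.25). Neither was called. BTG2, ID1, MAFF and DUSP5 had 4.19 to 8.54 FPM where listed. ETS2, BHLHE40, HES1, MYC, SPRY4, SPRY2, FOSL1, NR4A2 and SGK1 had 1.44 to 4.19 FPM where listed. No gene-end summit was listed in any library for the other 21, which include all 3 IER genes and CCN2, the relative of CCN1.

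Genes whose levels over the 4 libraries were nearest to those of EGR1 or DUSP1 came from the 342 gene-end summits matched in all 4, 3 of which are members. Nearness is the Euclidean distance of log2 FPM over the 4 libraries and is a description. Nearest to EGR1 were MEX3C (distance 0.19), MXD1 (0.27), SH3GLB2 (0.28), AHCYL2 (0.30) and the shared end of CRYZL1 and ITSN1 (0.30). MEX3C had 27.8 FPM under PD0332991, 31.3 in its control, 23.5 after RB siRNA and 15.8 in the siRNA control. Nearest to DUSP1 were NUP155 (0.45), LOC110384692 (0.50), CC2D1B (0.51), RADIL (0.60) and ZNRF3 (0.61).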

How the data were processed

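The 22RV1 libraries are labelled CUT&Tag, while the labels' protocols describe fixed, sonicated chromatin with input and immunoprecipitated parts, so the assay is uncertain. Reads were handled with bcl2fastq 2.17, Trimmomatic 0.33, Bowtie2 (version given as 2) and MACS2 2.1.0 on hg38, per the submitters' processing notes, which give no settings. Each deposited interval carries, for its summit, the authors' fold (a ratio over background), −log10 p, −log10 q and a score that restates the −log10 p in whole numbers.

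Fragments and background at each summit were solved from the deposited fold and p, with a pseudocount of 1 and a Poisson upper tail. At the genome-wide background 100% of solved values were whole within 0.05 in each list, against 10% by chance. The MACS2 window of 10000 bp and genome size of 2.7 Gb are assumed, and totals rest on them. Steps were tested on simulated data. Summits on chromosomes 1 to 22, X and Y were placed on RefSeq GRCh38 genes; 8 of the 10 members matched the promoter table. With 1 library per group there was no test between groups, and depth limits precision as the intervals show. The members and lists, and the minimum of 5 FPM, were chosen with earlier results of these data known. Other genes are named where they had a gene-end summit. Alternatives were windows of 500 and 2500 bp, matching within 100 and 500 bp, a −log10 q of at least 2, a 5 FPM minimum, median scaling and a 2-fold call. Analysis used Python 3.11.15, numpy 2.4.6, scipy 1.17.1, pandas 2.3.3 and matplotlib 3.10.9. The summit that covers KLF4 under PD0332991 is not reported here.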

Additional observations from a re-analysis of the deposited data

How the results depend on the processing

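At a deposited −log10 q of at least 2, 0 of the 10 members kept a gene-end summit in each of the 4 libraries, and the count of called members was 0 for PD0332991 and 0 for RB siRNA. Whole lists then held 27 intervals under PD0332991, 173 in its control, 11 after RB siRNA and 80 in the siRNA control, so that limit leaves nothing to compare at these genes. A 2-fold limit in place of the counting interval gave 0 called members for PD0332991 and 1 for RB siRNA. Windows of 500 and 2500 bp and a minimum of 5 FPM moved a count of members by at most 1. Matching within 100 bp left out DUSP1 for PD0332991 and KLF4 for RB siRNA. TRIB1 and CCN1 kept their calls with matching within 100 and 500 bp and with all shared summits in the median, an alternative chosen after seeing the data. Their paired summits lie 51 bp (TRIB1, PD0332991) and 93 bp (CCN1, RB siRNA) apart. Each of these alternatives thus kept the same pair and ratio, and only the median could move. That median was 0.19 to 0.23 for PD0332991 and 0.43 to 0.46 for RB siRNA, so these alternatives are a weak check. Median scaling subtracts the median that defines a call, so it cannot change one. A member's log2 ratio for PD0332991 or RB siRNA stayed the same wherever its pair was kept, so only median scaling could change its sign. None changed there, although KLF4 for RB siRNA fell to 0.01 (-0.93 to 0.94). No paired analysis was possible because each group has 1 library and the groups share fewer than 2 replicate numbers. No replicate could be left out. Levels at DUSP1, KLF4 and KLF6 rest on 18 to 34 fragments, and log2 ratios of up to 1.02 there did not leave the median shift out. The call of CCN1 rests on 33 fragments after RB siRNA and 13 in the siRNA control, the fewest at any member summit.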

Other observations

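Factors that act upstream of immediate early genes, and other Krüppel-like factors, were listed as follows. Of 9 upstream factor genes, 1 had a gene-end summit under PD0332991, 3 in its control, 1 after RB siRNA and 3 in the siRNA control. Over all protein-coding genes the shares were 7.73% under PD0332991, 16.8% in its control, 6.63% after RB siRNA and 17.3% in the siRNA control. With so few genes, these counts are a description only. ELK4, an ETS-family partner of SRF, had 16.9 FPM after RB siRNA and 13.8 in the siRNA control (log2 ratio 0.29, -0.34 to 0.93), and 20.7 in the inhibitor control. TCF7L2, a factor of the Wnt pathway, had 5.24 FPM under PD0332991 and 3.25 in its control. ELK1, another partner, had 14.6 FPM in the inhibitor control, where its end is shared with UXT, and 8.62 in the siRNA control. SRF had 6.90 FPM (4.42 to 10.3) in the siRNA control, the 1 library with a summit there. ETS1, ELK3, CREB1, MRTFA and MRTFB had none in any library.

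Of 7 further KLF genes, KLF3 and KLF13 had a gene-end summit in all 4 libraries, again a description beside the shares over all genes just given. KLF3 had 18.3 FPM (12.8 to 25.5) under PD0332991 and 7.73 (4.65 to 12.1) in its control, a log2 ratio of 1.25 (0.40 to 2.13) that left out the median shift of 0.20. Of all shared summits of that pair, 9.36% were called higher in this way. After RB siRNA it had 8.67 FPM, against 8.62 in the siRNA control (0.01, -0.87 to 0.86). KLF13 had 7.33 FPM under PD0332991 and 6.10 in its control, and 6.19 after RB siRNA and 5.17 in the siRNA control. KLF11 had 16.4 FPM in the siRNA control, and elsewhere the interval over that site had its summit 28.3 to 31.9 kb away, with 162 FPM under PD0332991, 67.5 in its control and 108 after RB siRNA. The difference in KLF3 between the contrasts was not tested.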
